A study of Mus musculus with 8 samples.

Results

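The insulin-like growth factor (IGF) binding protein genes Igfbp2, Igfbp3, Igfbp4, Igfbp5, Igfbp6 and Igfbp7 were followed in RNA sequencing of a mouse epicardial cell line. These 6 genes were taken by name from the 35275 genes of the deposited tables, and 4 of them carried enough reads to be tested. The KO group held 4 libraries of cells that received CRISPR/Cas9 directed at Hdac3, the deacetylase of the NCoR corepressor complex, through an sgRNA lentivirus. The EV group held 4 libraries of the same line after transduction with an empty vector lentivirus. All cells were grown in high glucose medium with fetal bovine serum, and RNA was taken up in Trizol. The labels give no time after transduction, do not say whether the knockout cells are a clone or a pool, and do not say that replicates were separate cultures, so p-values measure only the spread between these libraries. For KO replicate 1 the title and the listed treatment disagree, the first giving KO and the other the empty vector. On the axis of largest difference over the tested genes (first principal component, 48.8% of variance), KO replicate 1 stood at 20.1. The other KO libraries lay between 16.3 and 19.3, and the EV libraries between −22.3 and −16.9. Libraries were grouped by title, and values without KO replicate 1 are given for the 4 tested members. Of the 42 genes whose fold changes were recomputed, Lrp6 alone lost its call without that library.

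IGF binding proteins are secreted proteins that hold IGF1 and IGF2 outside the cell, keep them from their receptor, and release them when proteases cut the binding protein. IGFBP3 is the main carrier in serum, where it forms a complex with the acid-labile subunit. IGFBP6 prefers IGF2, and IGFBP7 binds IGFs only weakly and is found in basement membranes and vessel walls. IGFBP4 mainly inhibits IGF action and is the classic substrate of the protease PAPP-A. In mouse cell culture IGFBP4 has also been described as a factor that favours cardiomyocyte formation by blocking Wnt receptors. The epicardium, the cell layer around the heart, is a known source of IGF2 for the muscle below it.

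The promoters of Igfbp4 and Igfbp7 are shown because these were the members that differed between the groups, in opposite directions. Each window runs 5′ to 3′ on the gene's own strand from 250 bases before to 50 bases after the transcription start (RefSeq, GRCm38.p6, the build that mm10 names). RefSeq windows were found for 6 of the 6 members. Capitals mark matches, on either strand, to TATAAA (the TATA box), GGGCGG (the GC box), CACGTG (the E-box), TGANTCA (the AP-1 site), AGGTCA (the half-site of nuclear receptors) or CCAAT. No capital run holds more than 1 of these motifs. The Igfbp4 window is chr11:99040994-99041293 on the plus strand and the Igfbp7 window chr5:77407996-77408295 on the minus strand.
Igfbp4: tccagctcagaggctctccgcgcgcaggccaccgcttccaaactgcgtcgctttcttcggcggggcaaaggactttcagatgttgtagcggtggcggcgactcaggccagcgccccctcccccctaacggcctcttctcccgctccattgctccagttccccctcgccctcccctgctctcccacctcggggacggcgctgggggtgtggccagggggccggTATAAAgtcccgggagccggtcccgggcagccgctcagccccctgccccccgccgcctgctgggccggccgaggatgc
Igfbp7: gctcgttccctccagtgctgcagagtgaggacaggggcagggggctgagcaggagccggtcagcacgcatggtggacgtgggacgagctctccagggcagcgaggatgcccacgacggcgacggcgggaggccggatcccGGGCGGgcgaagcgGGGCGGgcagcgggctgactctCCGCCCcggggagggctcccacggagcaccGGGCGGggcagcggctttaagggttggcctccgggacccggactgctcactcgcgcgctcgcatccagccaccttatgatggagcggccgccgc

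The Igfbp4 window held 1 match, a TATA box that begins 28 bases upstream of the start, and TATAAA occurred in 13.6% of all 32851 mouse promoter windows of this length. The Igfbp7 window held 4 GC boxes and none of the other motifs, and GGGCGG occurred in 35.7% of all windows. Neither window held AGGTCA, which occurred in 16.3% of windows. Both were rich in G and C, at 71.3% for Igfbp4 and 73.3% for Igfbp7 against a median of 52.7%. Of the members without a detected difference, the Igfbp3 window held none of these motifs, and the Igfbp6 window held 2 CCAAT boxes and 1 TATAAA on the opposite strand. The Igfbp6 window ends at 102144235, before the deposited gene start at 102144362, whereas those of Igfbp4 and Igfbp7 span the deposited start. Of the untested members, Igfbp2 had 3 GC boxes and 1 E-box in 1 window and 1 AP-1 site in another, and the Igfbp5 window held none. A match describes letters only.

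Among the 8 libraries, 4 members were abundant and 2 were nearly silent. Levels per length are given as FPKM, the authors' counts scaled by gene length and by the library's total. Igfbp3 was the most abundant member, at 574 ± 19.0 FPKM in KO and 578 ± 10.5 FPKM in EV (SD, n = 4 each), and ranked 89 and 78 among all genes by mean FPKM in KO and EV. Igfbp7 was the lowest of the abundant members, at 89.7 ± 6.42 FPKM in KO and 127 ± 11.5 FPKM in EV (SD, n = 4 each). Between them stood Igfbp4 and Igfbp6, whose order differed between the groups. In KO the order was Igfbp3, Igfbp4, Igfbp6, Igfbp7 in 4 of 4 libraries. In EV it was Igfbp3, Igfbp6, Igfbp4, Igfbp7 in 4 of 4 libraries.

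Within each group the ranges of neighbours in this order did not overlap. In KO, Igfbp4 ran from 391 to 414 FPKM and Igfbp6 from 325 to 369 FPKM. In EV, Igfbp4 ran from 283 to 319 FPKM and Igfbp6 from 326 to 431 FPKM, so that its lowest library was separated from the highest Igfbp4 library by a small gap. The ratio of Igfbp4 to Igfbp6 in the same library, which does not depend on how libraries are scaled to each other, lay between 1.12 and 1.21 in KO and between 0.738 and 0.868 in EV. The order rests on the deposited gene lengths of 3831 bases for Igfbp4 and 1112 bases for Igfbp6, which equal those of the principal transcripts in GENCODE M21, each of 4 exons.

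**Figure D1:**
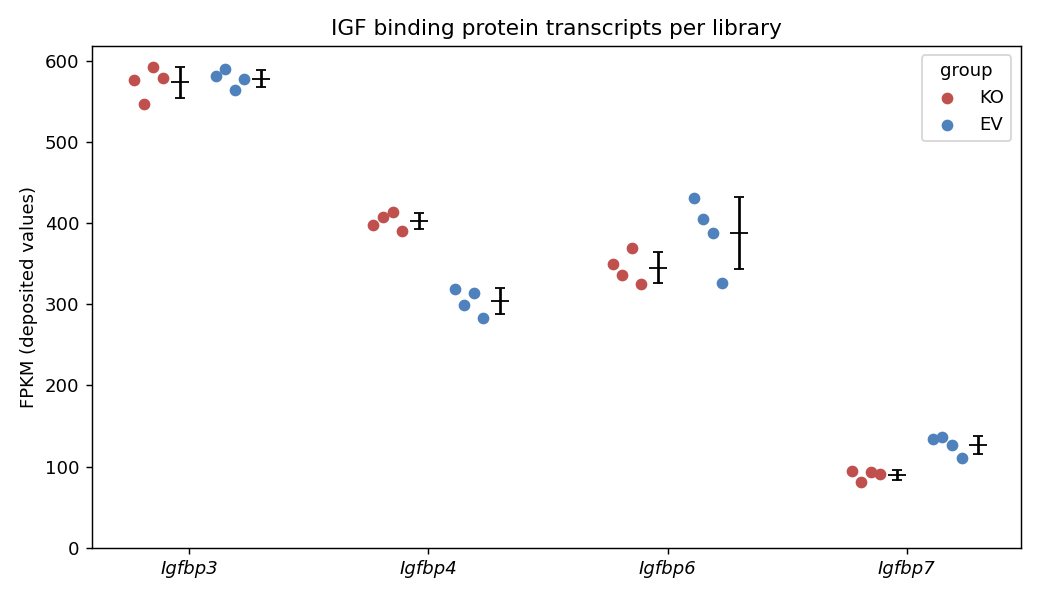
Deposited FPKM of the 4 abundant IGF binding protein genes, 1 point per library, KO left of EV for each gene, with the mean and SD (n = 4) in black. Igfbp4 lies at 391 to 414 FPKM in KO and 283 to 319 FPKM in EV, Igfbp7 is lower in every KO library than in any EV library, and the groups overlap for Igfbp3 and Igfbp6.

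The comparison of KO with EV was fitted over all genes with edgeR's quasi-likelihood test on the deposited counts. Of the 12801 genes tested, 26.0% passed a Benjamini-Hochberg adjusted p of 0.05, 12.6% as higher in KO and 13.4% as lower. Of the 4 members tested, 1 rose, 1 fell and 2 did not pass. The CPM values below are counts scaled to a common library size after TMM, the edgeR correction for library composition. The groups did not overlap in CPM for 26.5% of the tested genes.

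Igfbp4 rose in KO. Igfbp4 (ENSMUSG00000017493, mm10 chromosome 11, 99041244 to 99054392, plus strand) stood at 1549, 1582, 1618 and 1527 CPM in KO replicates 1 to 4, against 1209, 1113, 1191 and 1063 CPM in EV replicates 1 to 4. The lowest KO library was above the highest EV library, and within EV replicate 4 was the lowest. The means were 1569 ± 39.4 CPM in KO and 1144 ± 68.2 CPM in EV (SD, n = 4 each). The log2 fold change was 0.46 (SE 0.0463, edgeR adjusted p = 4.59e-07), or 1.37-fold with a 95% interval of the change from 28.2 to 46.7%. In bulk RNA a change in the share of cells that make a transcript and a change in its amount per cell cannot be told apart. The two-sided exact permutation test reached p = 0.0286, the smallest that 4 against 4 libraries allow. Without KO replicate 1, the library with conflicting labels, the log2 fold change was 0.46 (edgeR adjusted p = 4.46e-06).

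Igfbp7 fell in KO, with a level 1.36-fold higher in EV. Igfbp7 (ENSMUSG00000036256, chromosome 5, 77349240 to 77408045, minus strand) stood at 117, 98.7, 115 and 113 CPM in KO replicates 1 to 4, against 160, 161, 151 and 131 CPM in EV replicates 1 to 4. The groups did not overlap, and in EV replicate 4 was again the lowest. The means were 111 ± 8.20 CPM in KO and 151 ± 13.8 CPM in EV (SD, n = 4 each). On the log2 scale it fell by 0.45 (SE 0.0639, edgeR adjusted p = 3.35e-05), with a 95% interval of the change from −0.58 to −0.31, and the exact permutation test, two-sided, again gave the smallest p possible, 0.0286. Without KO replicate 1 the log2 fold change was −0.47 (edgeR adjusted p = 9.82e-05). The 3′ end of Igfbp7 overlaps that of Polr2b, an RNA polymerase II subunit gene on the other strand, by 85 bases, and the strand setting of the counting is not known here. Polr2b stood at 105 ± 3.18 CPM in KO and 102 ± 6.87 CPM in EV (SD, n = 4 each), and did not pass (edgeR adjusted p = 0.576).

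Igfbp3 did not differ detectably between the groups. Igfbp3 (ENSMUSG00000020427, chromosome 11, 7206086 to 7213923, minus strand) stood at 1418, 1343, 1464 and 1430 CPM in KO replicates 1 to 4, against 1391, 1389, 1350 and 1369 CPM in EV replicates 1 to 4. KO replicate 2 was the lowest of all libraries and KO replicate 3 the highest, so that the KO values enclosed the EV values. The log2 fold change was 0.04 (SE 0.0410, edgeR adjusted p = 0.512), with a 95% interval from −0.05 to 0.13. Its depth was ample, with 122565 counts in the KO libraries and 115266 in the EV libraries. The interval thus leaves room for a change between −3.12 and 9.14%. Without KO replicate 1 the value was 0.04 (edgeR adjusted p = 0.621).

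Igfbp6 was lower on average in KO, without passing the test. Igfbp6 (ENSMUSG00000023046, chromosome 15, 102144362 to 102149511, plus strand) stood at 395, 378, 419 and 369 CPM in KO replicates 1 to 4, against 474, 438, 427 and 355 CPM in EV replicates 1 to 4. EV replicate 4 was the lowest library of either group, and the other EV libraries lay above all KO libraries. The log2 fold change was −0.12 (SE 0.0667, edgeR adjusted p = 0.216), with a 95% interval from −0.26 to 0.02. Single libraries moved this value in both directions. Without EV replicate 4, the lowest of its group, it was −0.19 (SE 0.0488, edgeR adjusted p = 0.00480) and passed, and without EV replicate 1, the highest, it was −0.065 (edgeR adjusted p = 0.490). Without KO replicate 1 it was −0.12 (edgeR adjusted p = 0.279). Its coefficient of variation was 5.66% in KO and 11.7% in EV, and the EV value was above those of the other abundant members in EV. EV replicate 4 also differed most from its group over all genes with at least 20 counts in a pair. The pairs that held it had chi-squares of 8.95 to 13.2 times their degrees of freedom, against 4.01 to 6.62 in the other EV pairs.

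Igfbp2 and Igfbp5, which lie tail to tail 5458 bases apart on chromosome 1 (72824503 to 72852474 and 72857932 to 72874884), were at or near the detection limit. Igfbp2 (ENSMUSG00000039323) had 0, 2, 4 and 0 counts in KO replicates 1 to 4, against 2, 0, 0 and 1 in EV replicates 1 to 4. Igfbp5 (ENSMUSG00000026185) had 1, 0, 0 and 0 counts in KO replicates 1 to 4, against 2, 4, 2 and 2 in EV replicates 1 to 4. Neither passed the filter on low counts, so the edgeR fit gave them no test. The limit that a count of 0 allows, 3 counts, corresponds to 0.0203 to 0.0261 FPKM of Igfbp5 in the KO libraries and 0.0224 to 0.0277 FPKM in the EV libraries. A fit without the filter gave Igfbp5 an unadjusted p of 0.0322 and an adjusted p of 0.135, and Igfbp2 an adjusted p of 0.700. The 6 Igfbp2 counts of the KO group stood in its libraries with most liver transcripts. The summed level of 25 liver genes was 34.3 and 33.0 CPM in KO replicates 2 and 3, against 19.5 and 14.1 CPM in KO replicates 1 and 4 and 7.16 to 11.7 CPM in EV, where replicate 1 was the highest. Its part in the Igfbp2 counts was not tested.

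Igfbp4 and Igfbp7 stayed past the threshold in all 20 alternatives of processing that were run. Igfbp4 had log2 fold changes between 0.41 and 0.48 (adjusted p at most 0.000926), and Igfbp7 between −0.51 and −0.39 (adjusted p at most 0.00386). Without KO replicates 2 and 3, the libraries with most liver transcripts, the values were 0.43 and −0.40. Scaling by library totals alone, or the FPKM values, turned the sign of Igfbp3 but not of Igfbp4, Igfbp6 or Igfbp7.

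**Figure D2:**
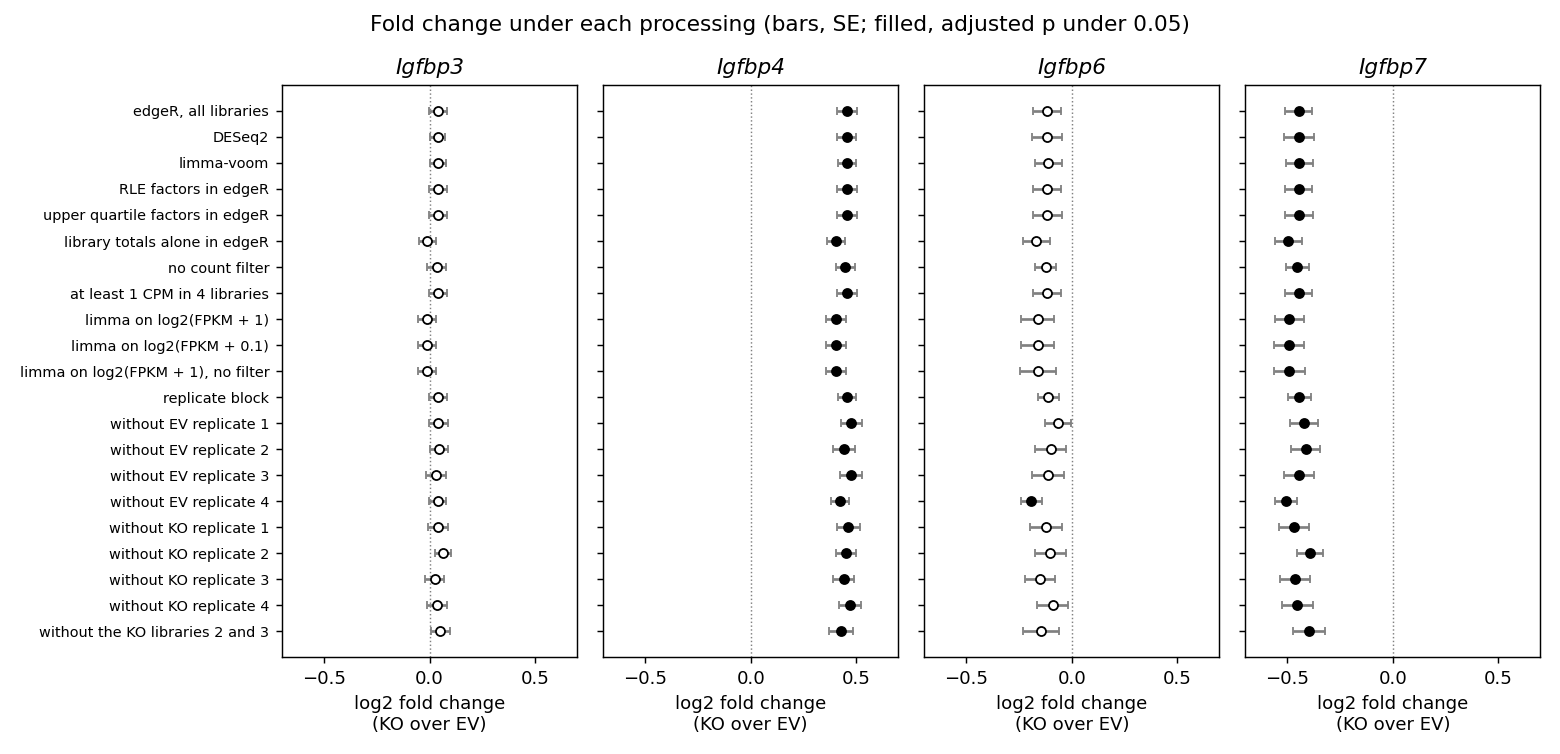
Log2 fold change (KO over EV) of the 4 tested members under each processing, 1 row per processing, with bars for the SE. Filled points have an adjusted p under 0.05. Igfbp4 lies between 0.41 and 0.48 and Igfbp7 between −0.51 and −0.39 in all rows, Igfbp3 stays near 0, and Igfbp6 is filled in the row without EV replicate 4.

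The summed FPKM of the family overlapped between the groups, while its share of all counts and the shares of Igfbp4 and Igfbp7 within it did not. The Igfbp6 shares nearly touched but did not overlap. The 6 genes summed to 1411 ± 43.5 FPKM in KO and 1396 ± 71.5 FPKM in EV (SD, n = 4 each), and the libraries overlapped, from 1371 to 1469 FPKM in KO and from 1298 to 1464 FPKM in EV. Counts, which are not divided by gene length and so weigh long transcripts such as that of Igfbp4 more, gave the family 0.336 to 0.354% of a library in KO and 0.298 to 0.327% in EV, higher in every KO library. Igfbp4 made up 28.0 to 29.7% of this sum in KO and 20.9 to 22.6% in EV. Igfbp7 made up 5.86 to 6.66% in KO and 8.52 to 9.53% in EV. Igfbp6 made up 23.5 to 25.2% in KO and 25.2 to 29.4% in EV. Its highest KO share, 25.154%, lay just below its lowest EV share, 25.1545%. Igfbp3 made up 39.9 to 41.8% in KO and 39.7 to 44.5% in EV. These shares come from within 1 library and do not depend on the scaling between libraries. The ratio of Igfbp4 to Igfbp7 was between 4.21 and 5.07 in KO and between 2.19 and 2.56 in EV.

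**Figure D3:**
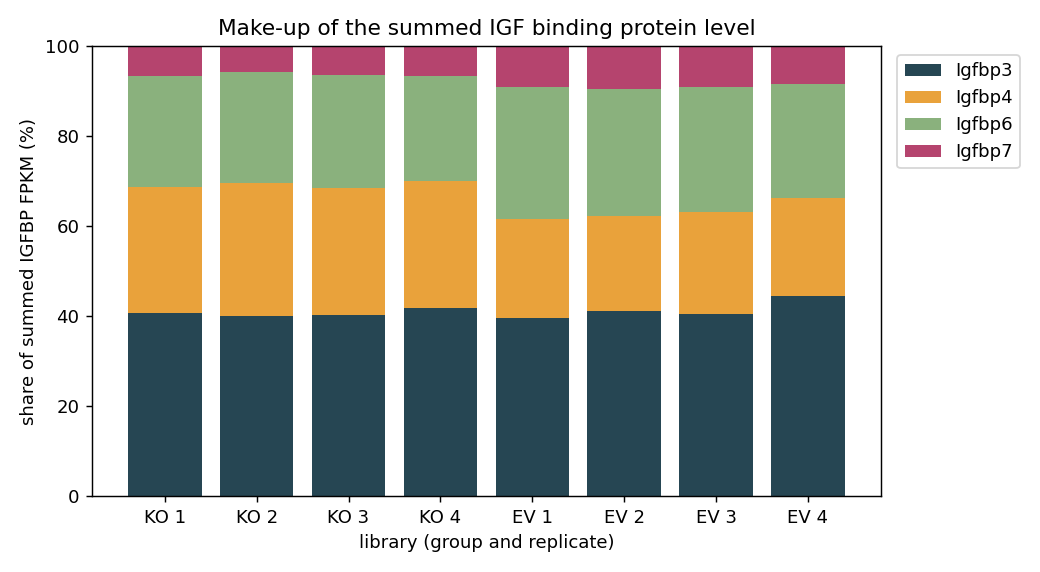
Share of the summed IGF binding protein FPKM held by Igfbp3, Igfbp4, Igfbp6 and Igfbp7 in each library, KO libraries left of EV libraries. Igfbp4 takes 28.0 to 29.7% in KO and 20.9 to 22.6% in EV, and Igfbp7 5.86 to 6.66% in KO and 8.52 to 9.53% in EV.

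The ligands that these proteins hold were lower in KO. Of 10 listed ligands, receptors and serum carrier genes, 5 were tested, 1 rose and 2 fell, or 60.0% beside 26.0% of all tested genes, with a median log2 fold change of −0.16 against 0.005 over all tested genes. Neither this share nor those of the lists below was tested against that of all genes. Igf1 stood at 15.3 ± 1.88 CPM in KO and 21.8 ± 1.28 CPM in EV (SD, n = 4 each; log2 fold change −0.51, SE 0.0892, edgeR adjusted p = 0.000269). Igf2 fell as well (−0.85, SE 0.0427), and the summed FPKM of the 6 binding proteins was 8.83 to 9.57 times the summed FPKM of Igf1 and Igf2 in KO libraries, against 4.73 to 5.18 times in EV libraries. Igf2r, the receptor that clears IGF2, rose (0.24, SE 0.0533), except in FPKM without a filter (adjusted p = 0.0681). The signalling receptors Igf1r (−0.16, edgeR adjusted p = 0.121) and Insr (−0.14, edgeR adjusted p = 0.0625) did not pass, but with library totals alone 4 genes of the list fell. Igfals, the acid-labile subunit gene, had at most 6 counts in a KO library and 9 in an EV library.

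The genes of proteases that cut IGF binding proteins, and of inhibitors of these proteases, changed in both directions. Of 23 listed, 17 were tested, 6 rose and 3 fell, or 52.9% beside 26.0% of all tested genes, with a median log2 fold change of 0.01. Pappa, the PAPP-A gene, fell to 9.31 ± 0.959 CPM in KO, against 13.7 ± 1.04 CPM in EV (SD, n = 4 each; log2 fold change −0.56, SE 0.10, edgeR adjusted p = 0.000351). Pappa2, its paralogue that cuts IGFBP3 and IGFBP5 and was named after its values were seen, rose to 13.4 ± 1.74 CPM in KO, against 8.90 ± 1.74 CPM in EV (SD, n = 4 each; log2 fold change 0.59, SE 0.128, edgeR adjusted p = 0.00203). The groups overlapped for Pappa2, and the call was lost in FPKM without a filter (adjusted p = 0.0645). The stanniocalcin gene Stc2, an inhibitor of PAPP-A, stood at 2.97 CPM in KO and 3.40 CPM in EV and did not pass (edgeR adjusted p = 0.444). Mmp3 (log2 fold change 1.79, SE 0.0822) and the lysosomal cathepsins Ctsb (0.53, SE 0.0433) and Ctsl (0.33, SE 0.0458) rose. Mmp2 (−0.21, SE 0.0442) and Htra1 (−0.18, SE 0.0513), a secreted serine protease that cuts IGFBP5, fell. The Htra1 call was lost without EV replicate 3 (adjusted p = 0.0593), without KO replicate 2 (adjusted p = 0.0530) and without KO replicates 2 and 3 (adjusted p = 0.0619). The median of this list was near that of all genes, and 3 genes rose in FPKM without a filter and 5 fell with library totals alone.

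Genes for proteins that share the N-terminal module of the IGF binding proteins were split. Of 13 listed, 8 were tested, 4 rose and 3 fell, or 87.5% beside 26.0% of all tested genes, with a median log2 fold change of 0.05. The matricellular CCN genes went both ways. Ctgf (−0.84, SE 0.0600) and Cyr61 (−0.37, SE 0.0576) fell, while Nov (1.66, SE 0.352), at 1.65 CPM in KO and 0.539 CPM in EV, and Wisp1 (0.17) rose, of which Wisp1 was named after its values were seen. Htra1, described above, was the third that fell. Htra3, a serine protease with the same module, rose (0.77, SE 0.118), as did the transmembrane gene Crim1 (0.30, SE 0.0465). Igfbpl1, the closest relative by name, had at most 1 count in a library.

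Among 16 listed partners of IGF binding proteins at the cell surface and in the matrix, 15 were tested, 5 rose and 2 fell, or 46.7% beside 26.0% of all tested genes, with a median log2 fold change of 0.10. Cd93, a receptor for IGFBP7 known from endothelial cells, rose to 18.6 ± 1.03 CPM in KO, against 10.4 ± 1.80 CPM in EV (SD, n = 4 each; log2 fold change 0.84, SE 0.106, edgeR adjusted p = 7.43e-06). Fibronectin, Fn1 (0.59, SE 0.0465), and osteopontin, Spp1 (0.71, SE 0.102), matrix proteins that bind IGFBP5, rose too. The receptor phosphatase Ptprz1 fell (−0.56, SE 0.0991). Of the Wnt receptors to which IGFBP4 binds, Lrp6 fell (−0.19, SE 0.0540) and Fzd8 did not pass (−0.15, edgeR adjusted p = 0.230). The groups overlapped in CPM for Lrp6. The Lrp6 call was lost without KO replicate 1 (adjusted p = 0.0568), KO replicate 3 (adjusted p = 0.0615) or KO replicates 2 and 3 (adjusted p = 0.0519), which left 1 fall, and library totals alone gave 4 falls.

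Of the genes downstream of the IGF receptor 13.6% passed, beside 26.0% of all tested genes. Of 22 tested, 2 rose and 1 fell, with a median log2 fold change of 0.03. The adaptor gene Grb10, an imprinted inhibitor of insulin and IGF receptors, fell to 595 ± 29.9 CPM in KO, against 920 ± 43.6 CPM in EV (SD, n = 4 each; log2 fold change −0.63, SE 0.0480, edgeR adjusted p = 1.13e-08). The rises of the adaptor Grb2 (0.16, SE 0.0483) and the kinase Akt1 (0.17, SE 0.0481) were lost with library totals alone, in FPKM, without KO replicate 3 and without KO replicates 2 and 3 (adjusted p = 0.0554 for Akt1 and 0.161 for Grb2), each of which left 0 rises, and Grb2 was lost without EV replicate 2. Without EV replicate 1, EV replicate 4 or KO replicate 2 there were 2 falls, and 5 with library totals alone. Of the 3 mRNA-binding protein genes named for IGF2, 33.3% passed. Igf2bp3 rose (0.34, SE 0.0921, edgeR adjusted p = 0.00998), 3 rose without EV replicate 4 and 2 without KO replicate 3. The Igf2bp3 call was lost in FPKM (adjusted p = 0.0530) and without KO replicates 2 and 3 (adjusted p = 0.0593). Of the genes named in these lists, Igf1, Igf2, Igf2r, Insr, Htra1, Ctsb, Ctgf, Fn1 and Igf2bp3 overlap a gene on the opposite strand, and Pappa2 and Grb2 overlap one on the same strand.

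**Figure D4:**
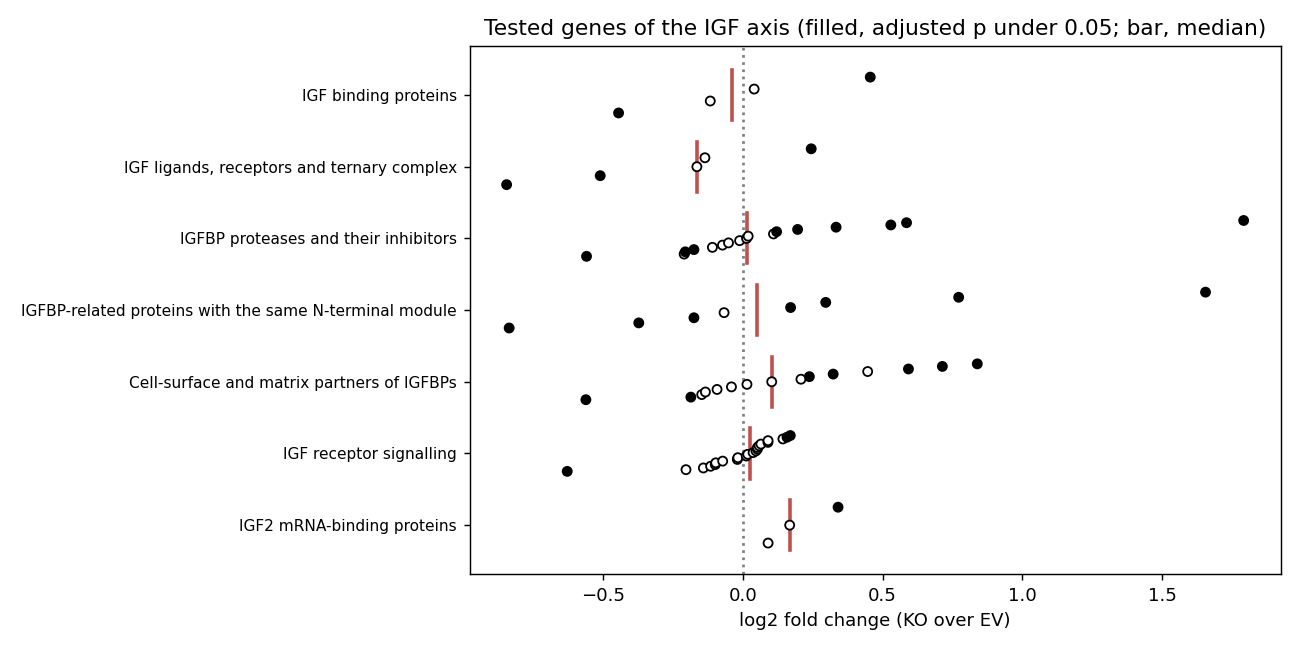
Log2 fold change (KO over EV) of every tested gene of the IGF binding proteins and of 6 lists of related genes, 1 point per gene, filled where the adjusted p was under 0.05, with a bar at each median. The 4 binding proteins span −0.45 to 0.46, Igf2 and Igf1 are the filled points at −0.85 and −0.51 among the ligands and receptors, and Mmp3 lies farthest right at 1.79.

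The genes most like Igfbp4 and Igfbp7 across the 8 libraries were found among 9789 genes with at least 5 CPM on average. Genes with Gm, Rik or accession-like names, or with a duplicated symbol, were left out, so nearer genes may exist among them. Likeness was the root mean square difference of log2 CPM after each gene was centred on its own mean, so that smaller is more alike. This measure includes the difference between KO and EV, so the genes it picks share the member's fold change by construction. Nearest to Igfbp4 were Vopp1 (0.0313), the mesothelial surface gene Msln (0.0324) and the septin gene Sept9 (0.0379). Msln, a marker of the epicardium, stood at 925 ± 24.0 CPM in KO and 682 ± 29.2 CPM in EV (SD, n = 4 each; log2 fold change 0.44, SE 0.0439, edgeR adjusted p = 3.72e-07). Of the 13 tested epicardial and mesothelial markers, which include Msln, 4 rose and 4 fell, or 61.5% beside 26.0% of all tested genes. Nearest to Igfbp7 were the keratin gene Krt14 (0.0422), Crip2 (0.0623) and Hal (0.0701), the gene of histidine ammonia-lyase. Krt14 stood at 58.1 ± 2.64 CPM in KO and 77.5 ± 5.62 CPM in EV (SD, n = 4 each; log2 fold change −0.42, SE 0.0584, edgeR adjusted p = 2.56e-05).

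The annotated neighbours of the members were looked at last. Igfbp3 lies 3540 bases from Igfbp1, a family member that is no part of the set and had at most 2 counts in a KO library and 1 in an EV library. The genes beside Igfbp4 changed in opposite directions: Top2a, the mitotic topoisomerase gene 17055 bases away, fell (SE 0.0632, log2 fold change −0.49, edgeR adjusted p = 9.82e-06), whereas Tns4, 11286 bases away, rose (0.78, SE 0.142, edgeR adjusted p = 0.000382). The neighbours Spryd3 of Igfbp6 (−0.03, edgeR adjusted p = 0.775) and Noa1 of Igfbp7 (−0.04, edgeR adjusted p = 0.744) did not pass. Rpl37a, a ribosomal protein gene 110694 bases from Igfbp2, stood at 316 CPM in KO and 256 CPM in EV while Igfbp2 was nearly silent. Rpl37a rose (0.30, SE 0.0731, edgeR adjusted p = 0.00458). Its call was lost in FPKM (limma adjusted p = 0.0540 with a pseudocount of 1, 0.0546 with 0.1 and 0.138 without a filter).

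Library totals ran from 18063745 to 24564892 counts. Hdac3 itself stood at 61.6 ± 3.23 CPM in KO and 61.8 ± 1.53 CPM in EV (SD, n = 4 each; log2 fold change −0.005, edgeR adjusted p = 0.956). A Cas9 edit need not lower a transcript, so this does not check the labels. Of 14 epicardial and mesothelial markers, 13 were tested, 4 rose and 4 fell, among them Wt1 at 263 CPM in KO and 341 CPM in EV, and the summed level was 5823 to 5987 CPM in KO and 5969 to 6327 CPM in EV. Of 11 fibroblast and smooth muscle markers, 10 were tested, 4 rose and 5 fell, and the summed level, mostly of collagens, was 35613 to 37214 CPM in KO and 27173 to 29292 CPM in EV. The epicardial marker Aldh1a2 was nearly absent, with at most 8 counts in a KO library and 10 in an EV library. The smooth muscle marker Myh11 had at most 2 counts in a KO library and 7 in an EV library. Of 8 endothelial markers, 3 were tested, 1 rose and 1 fell. Pecam1 and Cdh5 had at most 3 counts in a KO library and 6 in an EV library, but Kdr stood at 14.6 CPM in KO and 21.7 CPM in EV and fell (log2 fold change −0.58, edgeR adjusted p = 1.32e-05), and Tek rose (0.42, edgeR adjusted p = 0.0298). The endothelial sum was 21.3 to 23.3 CPM in KO and 28.6 to 30.8 CPM in EV. Of 8 cardiomyocyte markers, 4 were tested and 1 fell. Nppa was at 0 in all libraries, but Tnnt2 stood at 115 CPM in KO and 145 CPM in EV and fell (−0.33, edgeR adjusted p = 5.67e-05). The cardiomyocyte sum, mostly Tnnt2, was 112 to 129 CPM in KO and 145 to 158 CPM in EV. Of 9 blood cell markers, 2 were tested and 1 rose. Ptprc had at most 1 count in any library, but Cd68 stood at 7.88 CPM in KO and 4.74 CPM in EV and rose (0.73, edgeR adjusted p = 0.000233). The blood cell sum was 9.80 to 11.01 CPM in KO and 6.41 to 7.59 CPM in EV. Of 25 liver markers, 9 were tested, 5 rose and 0 fell. None of these sums overlapped between the groups, apart from the epicardial one. The part of these marker levels in the changes of Igfbp4 and Igfbp7 was not tested.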

How the data were processed

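Messenger RNA was measured in 8 libraries of a mouse epicardial cell line, 4 KO and 4 EV. The authors deposited raw counts per gene and FPKM values for 35275 genes. The deposited FPKM values equal the deposited counts divided by gene length and column total for 100% of nonzero values within 1e-06, so they carry no correction for library composition. The build mm10 and DESeq 1.6.3 are named in the submitters' processing notes. The sources used here do not name the aligner, the counter, the annotation release or the strand setting.

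The test was edgeR 4.0.16 in R 4.3.3 with TMM scaling, filterByExpr (minimum count 10, total 15), a two-sided quasi-likelihood F test, and p-values adjusted by Benjamini-Hochberg over all 12801 genes tested. The SE is the size of the log2 fold change over the square root of F. The fits were also run on counts simulated with known fold changes and the same biological spread for every gene. That run did not check the SE. No library was a duplicate of another in its own group, since the chi-square of each replicate pair was at least 4.01 times its degrees of freedom. Pairs of a KO and an EV library were not part of this check. A count of 3 corresponded to 0.125 to 0.164 CPM, and such floors cover counting error only. Alternatives used DESeq2 1.42.0, limma 3.58.1 (voom, and log2(FPKM + 1) or log2(FPKM + 0.1) with FPKM of at least 0.5 in 4 libraries or no filter), other scaling factors and filters, the replicate number as a block, and libraries left out.

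The members, lists and alternatives were chosen with earlier results of these data known. From each list the text names all called genes where they are 6 or fewer, otherwise the 3 higher and 3 lower in KO with the smallest adjusted p, and other names are marked or give context. For Igfbp4 and Igfbp7 it names the 3 most similar genes with at least 5 CPM, after the exclusions by name given above.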

Additional observations from a re-analysis of the deposited data

Results flagged for a closer look

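Among the 28 tested members and listed genes, each checked for a library far from the other 3 of its group, 2 of 56 groups stood out, and chance alone marks about 1 in 20. Neither was an IGF binding protein gene. Grb10 was at 985 CPM in EV replicate 4, while the other EV libraries lay between 896 and 902 CPM. Htra1 was at 155 CPM in EV replicate 3, while the other EV libraries lay between 148 and 149 CPM.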

How the results depend on the processing

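Among the IGF binding protein genes, 1 rise and 1 fall were found in all 20 alternatives, except that 2 fell without EV replicate 4, where Igfbp6 passed. With 1 library left out, falls among the members ranged from 1 to 2. Igfbp3 turned to −0.011 with library totals alone and in FPKM with a pseudocount of 1, with and without a filter, or 0.1. Polr2b turned to −0.0064 with library totals alone and to −0.0045 (pseudocount 1, with and without a filter) and −0.0046 (pseudocount 0.1) in FPKM. Hdac3 ranged from −0.023 to 0.032 with 1 library left out (0.012 without EV replicate 3) and was 0.024 without KO replicates 2 and 3, and Spryd3 ranged from −0.082 to 0.0093. Over all genes, 1613 rose and 1711 fell. The rises numbered 1039 with library totals alone, 896 in FPKM with a pseudocount of 1, 897 with 0.1 and 766 without a filter, and without KO replicates 2 and 3 there were 880 rises and 1094 falls, from fewer samples. With library totals alone 2414 genes fell. With 1 library left out, 1239 to 1584 genes rose and 1382 to 1775 fell. Of the genes of the related lists, 19 rose and 10 fell. Htra1, listed both among the proteases and among the proteins with the N-terminal module, was counted once. The called shares of the single lists ran from 13.6 to 87.5%, beside 26.0% of all tested genes. With library totals alone 20 of the listed genes fell, and in FPKM 12 rose with either pseudocount and 11 without a filter. With 1 library left out, 16 to 22 rose and 9 to 14 fell. Library totals alone moved the median log2 fold change of all genes to −0.046. The FPKM values are likewise scaled by library totals, without TMM. The cause of the other shifts was not tested. Of 838 recomputed log2 fold changes of 42 named genes, 797 kept direction and side of the threshold, 28 lost the call, 1 gained it and 12 changed sign. Replicate numbers are shared between groups. The deviations of libraries with the same number correlated between −0.034 and 0.124, while 6 of 8 libraries correlated best with their own number. Whether libraries with the same number were paired was not tested. With the replicate number as a block, 1879 genes rose and 1859 fell, 1 member rose and 1 fell, and 20 listed genes rose and 12 fell. In that fit Igfbp6 was at −0.11 (edgeR adjusted p = 0.0846) and did not pass. Depth limits Igfbp2 and Igfbp5, with 0 to 4 counts a library.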
